A study of Mus musculus with 8 samples.

Results

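Acta2, Tagln, Cnn1, Cnn2, Tpm1, Tpm2, Myl9, Vim, Pdgfrb and S100a4 are genes of the contractile and mesenchymal cytoskeleton. These 10 genes, out of 54446 in each deposited count table, were chosen by name from their known roles and not from a threshold on these data. Earlier results of these data were known when they were chosen. All 10 passed the filter on low counts that left 21782 genes for testing. The study sequenced nuclear RNA of C57BL/6 mouse embryonic stem cells carrying a conditional knockout (CKO) of Mettl14 or of Mettl3, each beside the Control cells of its line. METTL3 and METTL14 together form the enzyme complex that places N6-methyladenosine on RNA. The 8 libraries formed 4 groups of 2, namely the Control and the CKO of the Mettl14 line and the Control and the CKO of the Mettl3 line. All groups shared the medium, DMEM with 15% serum, 1000 U/ml of the cytokine LIF, 3 µM of the GSK3 inhibitor CHIR99021 and 1 µM of the MEK inhibitor PD0325901. The deleted exons, the way deletion was induced and the time after it were not given in the labels used here. No feeder layer, the fibroblast bed on which stem cells are often grown, is named in the labels.

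As background, smooth muscle actin (Acta2), the myosin regulatory light chain Myl9 and the calponins, transgelin and tropomyosins build and regulate actomyosin filaments. Many genes of this class are switched on by serum response factor (SRF), which binds a short element called the CArG box, when its coactivators MRTF sense the assembly of actin; TEAD factors with YAP or TAZ act on an overlapping set. Vimentin forms the intermediate filaments of mesenchymal cells, Pdgfrb encodes a receptor for platelet-derived growth factor on fibroblasts and pericytes, and S100a4 is a calcium-binding protein long used as a fibroblast marker. Fibroblasts, pericytes and smooth muscle carry high levels of these genes, and stem cells raise some of them as they differentiate.

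RefSeq promoter windows (build GRCm38.p6, from 250 bases before to 50 after the start) were given for 8 of the 10 genes, all but Tagln and Pdgfrb. Of the 4 shown, Acta2, Cnn2 and Myl9 hold a CArG box or a near match, and Tpm1 holds neither; they show how members of 1 contractile class differ in these letters. Capitals mark, on the strand of the gene, the CArG box, a CArG box with 1 G or C in its core, or the TEAD motif GGAATG. The Acta2 window is chr19:34255324-34255623 on the minus strand, and Cnn2 is at chr10:79988350-79988649 on the plus strand. Myl9 is at chr2:156775214-156775513 on the plus strand, and Tpm1 at chr9:67049164-67049463 on the minus strand.
Acta2: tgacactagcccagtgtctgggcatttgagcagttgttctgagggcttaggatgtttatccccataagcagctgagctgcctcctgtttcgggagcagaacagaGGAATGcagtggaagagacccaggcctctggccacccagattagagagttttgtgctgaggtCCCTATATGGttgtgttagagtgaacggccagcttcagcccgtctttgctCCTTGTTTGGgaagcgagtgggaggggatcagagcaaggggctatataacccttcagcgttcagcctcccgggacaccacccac
Cnn2: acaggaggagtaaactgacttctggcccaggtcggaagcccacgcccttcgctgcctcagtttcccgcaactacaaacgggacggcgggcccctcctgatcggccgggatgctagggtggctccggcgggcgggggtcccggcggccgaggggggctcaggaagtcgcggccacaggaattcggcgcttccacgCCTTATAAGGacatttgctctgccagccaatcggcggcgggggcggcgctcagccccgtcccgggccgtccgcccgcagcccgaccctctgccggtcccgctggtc
Myl9: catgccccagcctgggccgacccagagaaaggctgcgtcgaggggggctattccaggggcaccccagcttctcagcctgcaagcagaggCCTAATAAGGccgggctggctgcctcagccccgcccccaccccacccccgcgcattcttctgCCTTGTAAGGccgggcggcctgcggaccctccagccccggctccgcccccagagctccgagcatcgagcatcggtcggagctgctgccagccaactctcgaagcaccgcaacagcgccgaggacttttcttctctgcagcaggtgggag
Tpm1: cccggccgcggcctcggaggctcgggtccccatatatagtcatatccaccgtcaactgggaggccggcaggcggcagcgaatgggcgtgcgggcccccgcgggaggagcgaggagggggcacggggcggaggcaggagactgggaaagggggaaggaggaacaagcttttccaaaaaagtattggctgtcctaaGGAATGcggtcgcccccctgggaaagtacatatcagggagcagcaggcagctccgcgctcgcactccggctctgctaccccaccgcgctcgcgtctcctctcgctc
In Acta2 the near matches CCCTATATGG and CCTTGTTTGG began 84 and 34 bases before the start (positions -84 and -34), and GGAATG began at -146. Cnn2 held the CArG box CCTTATAAGG at -56. Myl9 held the CArG box CCTAATAAGG at -161 and the near match CCTTGTAAGG at -99. Tpm1 held GGAATG at -56. Both strands were searched in 32851 mouse promoter windows of this length, of which 1.63% held a CArG box, 8.50% a CArG box with 1 G or C in its core, and 14.7% GGAATG. The motif TATAAA, present in 13.6% of windows, lay at -32 in Vim and -31 in S100a4. None of these motifs was found in the Cnn1 and Tpm2 windows, which says only that the letters are not in those 300 bases.

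Total counts ran from 17235889 to 20086128 per library, and each table was scaled by edgeR's TMM factors (0.834 to 1.15) to CPM, a count relative to the scaled library size. In its own CKO, Mettl14 RNA was 29.0 ± 1.72 CPM against 56.6 ± 2.34 in the Control (SD, n = 2), a log2 change of -0.96 with an adjusted p of 1.2e-26 by the quasi-likelihood test of edgeR, Benjamini-Hochberg adjusted. Mettl3 RNA was 19.2 ± 0.894 CPM in its CKO against 37.0 ± 1.29 in its Control, a log2 change of -0.95. Mettl14 RNA in the Mettl3 Control libraries, 28.4 ± 2.38 CPM, was at the level of the Mettl14 CKO. Pou5f1, the transcription factor that defines pluripotent cells, stood at 559 ± 16.1 CPM in Mettl14 Control, 240.4 ± 1.17 in Mettl14 CKO, 79.7 ± 2.68 in Mettl3 Control and 104 ± 1.33 in Mettl3 CKO. Whether both libraries of a group stem from different cultures is not in the labels, and every p-value therefore reflects the spread between these libraries alone. In bulk RNA, fewer cells of a type and less RNA per cell cannot be told apart, which applies to every level below.

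All 10 genes were higher in both Mettl3 groups than in both Mettl14 groups, with no overlap between any library of one line and any of the other. The share of all genes with such a separation, or with the overlaps below, was not counted. By the tests below, 34.1% of all genes tested were called lower in Mettl14 Control than in Mettl3 Control. Between the CKOs it was 24.9%. The order of the group means took 3 forms. Mettl3 CKO was highest, followed by Mettl3 Control, Mettl14 CKO and Mettl14 Control, for 5 genes (Tagln, Myl9, Vim, Pdgfrb and S100a4). Mettl3 Control was highest and Mettl14 Control lowest for 4 genes (Acta2, Cnn1, Cnn2 and Tpm1). Tpm2 was the exception, with Mettl3 Control highest and Mettl14 CKO lowest. The top 2 groups overlapped in 3 genes, Cnn2, Myl9 and S100a4, and the bottom 2 groups in Tpm1 and S100a4.

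Per length of merged exons, the mean level over groups spanned from 189 CPM per kb for Vim to 2.42 for S100a4. The S100a4 value is uncertain, since part of its exons is shared with another gene (below). Between them came Acta2 at 93.3, Tpm1 at 68.0, Tagln at 35.5 and Tpm2 at 27.2 CPM per kb, then Cnn2 at 14.8, Pdgfrb at 11.2, Myl9 at 10.8 and Cnn1 at 4.50. Vim was the most abundant of the 10 in every group, at 134 CPM per kb in Mettl14 Control and 236 in Mettl3 CKO. Acta2 and Tpm1 took the next places. In Mettl14 Control, Tpm1 at 49.9 CPM per kb stood above Acta2 at 36.4. In the other groups Acta2 stood above Tpm1, at 55.03 against 50.02 CPM per kb in Mettl14 CKO, 148 against 88.0 in Mettl3 Control and 134 against 83.9 in Mettl3 CKO.

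**Figure D1:**
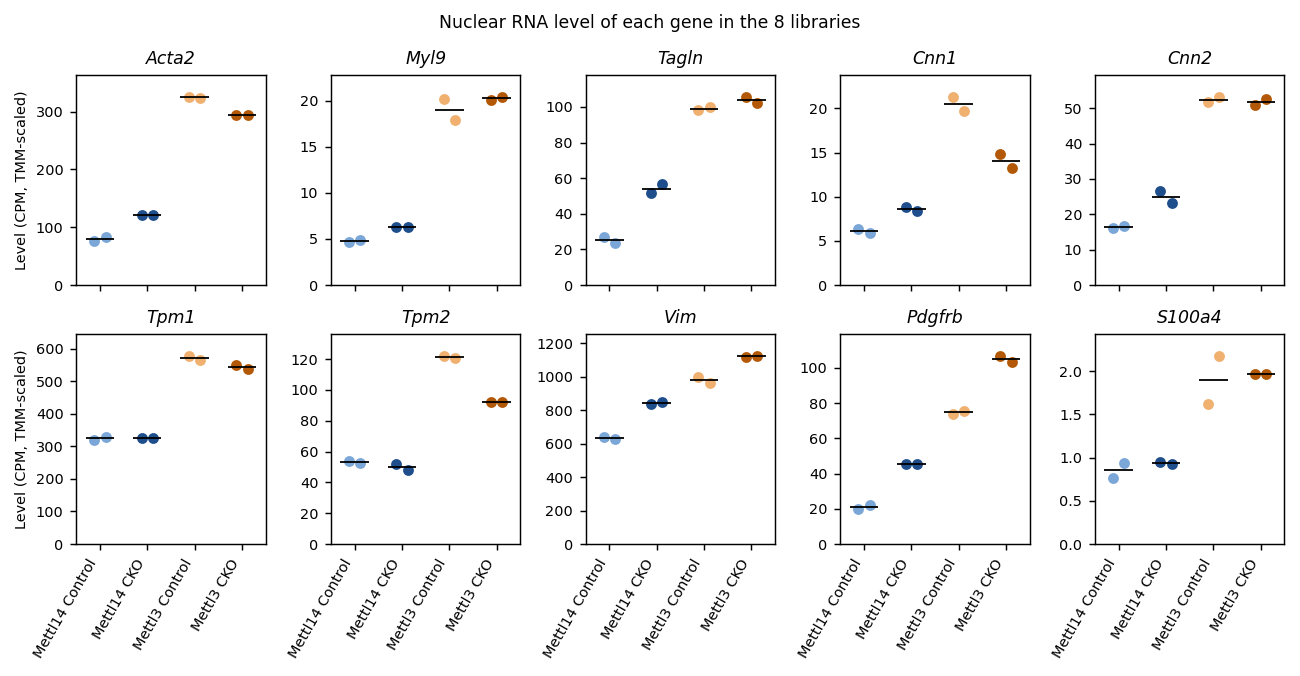
Level of each of the 10 genes (TMM-scaled CPM, linear axes from 0) by group; each point is 1 library and each bar the mean of 2 libraries. For each of the 10 genes the 4 Mettl3 libraries lie above the 4 Mettl14 libraries, a separation whose share over all genes was not counted. Vim, Pdgfrb and Tagln step up from Control to CKO within both lines, Tagln by little in the Mettl3 line.

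Among the filament and motor genes, Acta2 (chr19:34241090-34255590, minus strand; coordinates here and below are mm10) encodes the smooth muscle actin isoform. Its level in Mettl14 Control was 76.7 and 83.0 CPM, in Mettl14 CKO 121 and 121, in Mettl3 Control 325 and 324, and in Mettl3 CKO 294 and 294. The 4 groups did not overlap, and the CKO libraries lay above their Control in the Mettl14 line and below it in the Mettl3 line. Myl9 (chr2:156775420-156781658, plus strand), the regulatory light chain of smooth muscle and non-muscle myosin, measured 4.67 and 4.90 CPM in Mettl14 Control, against 6.25 and 6.30 in Mettl14 CKO. In the Mettl3 line Myl9 was 20.2 and 17.9 CPM in Control and 20.1 and 20.4 in CKO, which overlapped. Near-identical actin genes can share reads with Acta2, since the treatment of reads mapping to several places is not given.

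Of the actin-binding regulators, Tagln (chr9:45929619-45936058, minus strand), which encodes transgelin, an actin-bundling protein of smooth muscle, measured 27.1 and 23.8 CPM in Mettl14 Control, against 51.8 and 56.5 in Mettl14 CKO. It was 98.2 and 99.9 CPM in Mettl3 Control and 106 and 102 in Mettl3 CKO. The Mettl14 groups were far apart, and the Mettl3 groups lay next to each other. Exons of Tagln share 108 bases with Pcsk7 on the opposite strand, a gene at a mean of 43.7 CPM, and 1241 bases with the antisense gene Gm48529 at 3.67 CPM. The strand setting of the counting is not given, so reads of these overlaps cannot be assigned with certainty.

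Cnn1 (chr9:22099216-22109630, plus strand), the calponin typical of smooth muscle, measured 6.40 and 5.84 CPM in Mettl14 Control, against 8.82 and 8.42 in Mettl14 CKO. Cnn1 in the Mettl3 line fell from 21.3 and 19.7 CPM in Control to 14.8 and 13.2 in CKO. Its CKO libraries were on opposite sides of their Controls in the 2 lines. Cnn2 (chr10:79988584-79996062, plus strand), a calponin found also outside muscle, measured 16.2 and 16.8 CPM in Mettl14 Control, against 26.5 and 23.3 in Mettl14 CKO. Cnn2 in the Mettl3 line was 51.6 and 53.1 CPM in Control and 50.8 and 52.7 in CKO, and these overlapped.

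The tropomyosins lie along actin filaments and set which proteins reach them. Tpm1 (chr9:67022590-67049406, minus strand) measured 319.7 and 328 CPM in Mettl14 Control, against 325 and 324 in Mettl14 CKO, which overlapped. Its Mettl3 levels were 577 and 565 CPM in Control and 551 and 537 in CKO, a small gap with no overlap. Tpm2 (chr4:43514711-43523765, minus strand) measured 53.6 and 52.8 CPM in Mettl14 Control, against 51.9 and 47.8 in Mettl14 CKO. In the Mettl3 line Tpm2 was 122 and 120.5 CPM in Control and 92.1 and 92.5 in CKO. Both CKO libraries of each line were below both Controls, by little in the Mettl14 line and clearly in the Mettl3 line.

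Of the mesenchymal genes, Vim (chr2:13573927-13582826, plus strand) measured 641 and 629 CPM in Mettl14 Control, against 835 and 850.3 in Mettl14 CKO. The Mettl3 levels of Vim were 999.7 and 961 CPM in Control and 1118 and 1123 in CKO. Pdgfrb (chr18:61045150-61085061, plus strand) measured 20.1 and 22.0 CPM in Mettl14 Control, against 45.2 and 45.3 in Mettl14 CKO, then 73.8 and 75.8 in Mettl3 Control and 107 and 103 in Mettl3 CKO. Vim and Pdgfrb had every CKO library above its Controls in both lines, as did Tagln, by little in the Mettl3 line. S100a4 (chr3:90603771-90606045, plus strand) rested on 12 to 43 counts per library, with 0.768 and 0.942 CPM in Mettl14 Control, against 0.949 and 0.930 in Mettl14 CKO. In the Mettl3 line S100a4 was 1.62 and 2.18 CPM in Control and 1.97 and 1.97 in CKO, so that Control and CKO overlapped. Of the 584 exon bases of S100a4, 302 are shared on the same strand with the protein-coding gene Gm42674, at 0.0 CPM. How reads in this shared stretch were counted is not given, so S100a4 may be undercounted.

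Mettl14 CKO was compared with Mettl14 Control to ask how the RNA of these genes differed between the 2 groups. Tagln and Pdgfrb rose most, by 2.13-fold and 2.15-fold, followed by Acta2 and Cnn2 at 1.51-fold and 1.50-fold, Cnn1 at 1.41-fold, Vim at 1.33-fold and Myl9 at 1.31-fold. By the quasi-likelihood test of edgeR, Benjamini-Hochberg adjusted, 7 of the 10 were called higher and 0 lower. Of all genes tested, 40.4% were called, 18.0% higher and 22.4% lower, so the share of these genes called higher was above the background. Higher genes made up 44.6% of all calls, and 71.8% with library totals in place of scaling factors. The log2 change was 1.09 ± 0.064 (SE) for Tagln (adjusted p = 3.851e-33) and 1.10 ± 0.069 for Pdgfrb (adjusted p = 6.32e-31). For Acta2 it was 0.60 ± 0.040 (adjusted p = 3.634e-28), and for Vim 0.41 ± 0.024 (adjusted p = 7.306e-33). Cnn2 changed by 0.59 ± 0.086 (adjusted p = 2.468e-09) and Cnn1 by 0.49 ± 0.14 (adjusted p = 0.002668). The median log2 change of the 10 was 0.45, against 0.034 over all genes tested.

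The call for Myl9, a log2 change of 0.39 ± 0.16 (adjusted p = 0.0402), held under 9 of 17 alternative settings. It was lost when any 1 Mettl14 library was left out, with adjusted p-values from 0.0988 to 0.205, and under RLE scaling (0.0600), no low-count filter (0.0888), DESeq2 (0.138) and limma-voom (0.0753). Cnn1 was not called without Mettl14 Control replicate 2 (adjusted p = 0.0527). Tpm1 was not called at a log2 change of 0.0019, with a 95% interval from -0.054 to 0.058, although library totals without scaling factors gave a call at 0.21. Tpm2 was not called at -0.096, with an interval from -0.20 to 0.013, and S100a4 had the wide interval of -0.68 to 0.95.

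Mettl3 CKO was compared with Mettl3 Control in the same way. Pdgfrb rose 1.40-fold and Vim 1.14-fold, while Cnn1, Tpm2, Acta2 and Tpm1 fell; Tagln, Cnn2, Myl9 and S100a4 were not called. By the quasi-likelihood test of edgeR, Benjamini-Hochberg adjusted, 2 were called higher and 4 lower, where 20.9% of all genes tested were called, 15.1% higher and 5.78% lower. The share called lower was above the background, and the share called higher was near it. The number called lower was 3 when any library other than Mettl3 CKO replicate 2 was left out, and 2 without that one. Of all calls, 72.3% were higher, against 31.8% under upper-quartile scaling and 41.9% with library totals. The log2 change was 0.49 ± 0.047 for Pdgfrb (adjusted p = 1.353e-16) and 0.19 ± 0.023 for Vim (adjusted p = 1.216e-11). Cnn1 fell by 0.55 ± 0.10 on the log2 scale (adjusted p = 5.927e-06) and Tpm2 by 0.39 ± 0.043 (adjusted p = 1.18e-13). The median of the 10, 0.019, was close to that of all genes, 0.026, and turned to -0.09 under upper-quartile scaling.

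The smaller falls in the Mettl3 line were less stable. Acta2 fell by 0.14 ± 0.030 on the log2 scale (adjusted p = 0.0001096 by edgeR), but without Mettl3 CKO replicate 2 its adjusted p was 0.0517 and without the low-count filter its change was -0.034. Tpm1 fell by 0.070 ± 0.026 (adjusted p = 0.03827), a call that was lost whichever library was left out and that had the opposite sign, 0.037, without the low-count filter. The values for Tagln (0.067 ± 0.045), Cnn2 (-0.016 ± 0.060), Myl9 (0.090 ± 0.095) and S100a4 (0.054 ± 0.30) did not pass the test. Their 95% intervals reached from -0.021 to 0.16 for Tagln, from -0.14 to 0.10 for Cnn2, from -0.098 to 0.28 for Myl9 and from -0.54 to 0.64 for S100a4. Tagln was called only without the low-count filter, at 0.17, and was -0.046 under upper-quartile scaling.

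The difference between the changes, Mettl14 CKO against its Control minus Mettl3 CKO against its Control, was tested in the same model. It was positive and called for 7 of the 10 genes and negative and called for 0, where 33.2% of all genes tested were called, 12.7% higher and 20.5% lower. Of all calls 38.4% were higher, against 60.6% under upper-quartile scaling and 77.5% with library totals. Among the 10 genes it was largest for Cnn1, at 1.04 ± 0.17 on the log2 scale (adjusted p = 2.244e-07 by the quasi-likelihood test of edgeR, Benjamini-Hochberg adjusted), and Tagln, at 1.02 ± 0.079 (adjusted p = 1.608e-23). For Cnn1 the changes had opposite signs and were both called. The difference was 0.74 ± 0.050 for Acta2 (adjusted p = 1.896e-27), 0.62 ± 0.085 for Pdgfrb (adjusted p = 4.211e-10) and 0.61 ± 0.11 for Cnn2 (adjusted p = 6.176e-07). Tpm2 at 0.30 ± 0.070 (adjusted p = 0.0002459) lost its call without the low-count filter (adjusted p = 0.0507), and Vim differed by 0.22 ± 0.034 (adjusted p = 3.045e-08). Pdgfrb and Vim rose in both lines, and rose more in the Mettl14 line. Tpm1, Myl9 and S100a4 were not called, with intervals from -0.0034 to 0.15, from -0.068 to 0.67 and from -0.92 to 1.08; Tpm1 and Myl9 were called under upper-quartile scaling, at 0.23 and 0.46, and with library totals, at 0.36 and 0.59.

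**Figure D2:**
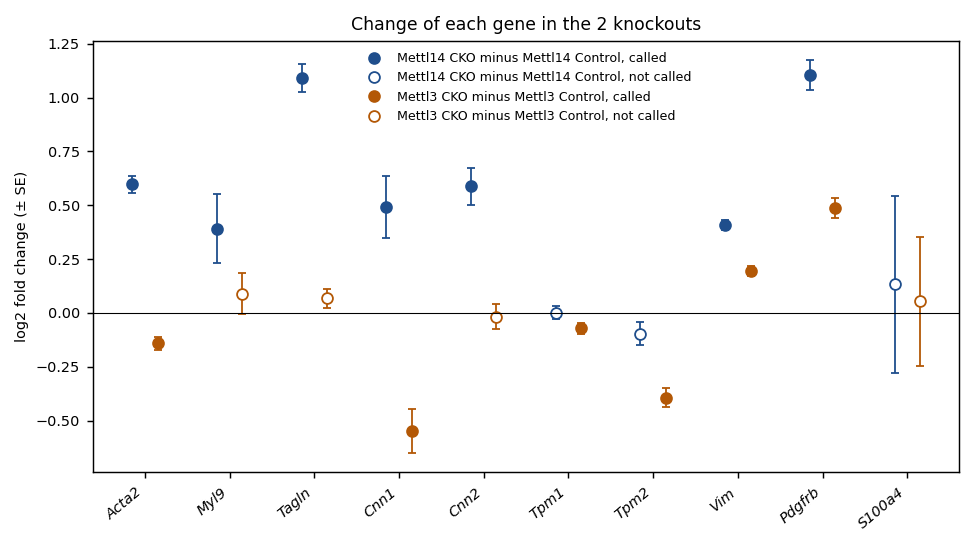
Log2 fold change of CKO over Control for the 10 genes, in blue for the Mettl14 line and orange for the Mettl3 line; points are edgeR estimates, bars are 1 SE, and filled points were called. In the Mettl14 line 7 genes were called higher, where 18.0% of all genes tested were. In the Mettl3 line 2 were called higher and 4 lower, against 15.1% and 5.78% of all genes tested. Without the low-count filter the 4 became 2. Acta2 and Cnn1 were called on opposite sides of 0, but the Mettl3 change of Acta2 was -0.034 and not called without that filter.

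The Controls of the lines were compared to show the level from which each knockout started. All 10 genes were called lower in Mettl14 Control than in Mettl3 Control, where 67.8% of all genes tested were called, 33.6% higher and 34.1% lower. Of all calls 49.7% were higher, against 37.4% under upper-quartile scaling and 25.0% with library totals. Acta2 was 4.06-fold lower (log2 -2.02 ± 0.036), Myl9 3.98-fold (-1.99 ± 0.13), Tagln 3.89-fold (-1.96 ± 0.058), Pdgfrb 3.55-fold (-1.83 ± 0.063), Cnn1 3.35-fold (-1.75 ± 0.12) and Cnn2 3.17-fold (-1.67 ± 0.076). Tpm2 (-1.19 ± 0.048), Tpm1 (-0.82 ± 0.027) and Vim (-0.63 ± 0.024) were lower by less. S100a4, at -1.14 ± 0.36 (adjusted p = 0.003597 by the quasi-likelihood test of edgeR, Benjamini-Hochberg adjusted), was not called without Mettl14 Control replicate 1 (0.0638) or without Mettl3 Control replicate 2 (0.0698). The median log2 difference of the 10 was -1.71, against -0.090 over all genes tested.

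The gap between the lines was also present among the CKO cells, where all 10 genes were called lower in Mettl14 CKO than in Mettl3 CKO against 24.9% of all genes tested, with 53.3% called in either direction. Of all calls 53.3% were higher, against 39.8% with library totals. The median log2 difference was -0.998, with Myl9 at -1.69 ± 0.12, Acta2 at -1.28 ± 0.034 and Pdgfrb at -1.21 ± 0.051. Tagln stood at -0.94 ± 0.049, Cnn1 at -0.70 ± 0.12 and Vim, the least separated, at -0.41 ± 0.024. S100a4 (-1.06 ± 0.34, adjusted p = 0.005334) was not called by DESeq2 (adjusted p = 0.0565). These line comparisons share their libraries with the knockout comparisons, and the genotype of the line, its culture history and any batch cannot be told apart.

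Of 19 tested actin cytoskeleton genes and paralogs, 5 were called higher and 10 lower in Mettl14 CKO, with a median log2 change of -0.25 against 0.034 over all genes. With library totals 8 were called higher and 7 lower, at a median of -0.047. Tpm3, a broadly expressed tropomyosin, fell by 0.54 ± 0.027 in Mettl14 CKO and was 1.21 higher in Mettl14 Control than in Mettl3 Control, opposite to Tpm1 and Tpm2 between the lines. Tpm4 fell by 0.26 ± 0.037 in Mettl14 CKO, and Cnn3 changed by 0.071 ± 0.029. Flna, an actin crosslinker, rose by 0.70 ± 0.022 in Mettl14 CKO and fell by 0.22 ± 0.021 in Mettl3 CKO, as Acta2 did in direction. In Mettl3 CKO 4 of the 19 were called higher and 7 lower, between Controls 6 and 12, and between CKOs 5 and 13. The Mettl3 counts became 0 higher and 12 lower under upper-quartile scaling, and 0 and 10 with library totals. Between Controls, library totals gave 3 and 15, and between CKOs 3 and 14.

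Genes restricted to contractile smooth muscle were low in most cases, with a summed level of 486 to 497 CPM in Mettl14 Control, 382 to 383 in Mettl14 CKO, 667 to 709.9 in Mettl3 Control and 694 to 702 in Mettl3 CKO, most of it Cald1, which is not restricted to muscle. Pln and Kcnmb1 were each at 0 in 1 Mettl14 Control library. Of 9 tested, 2 were called higher and 3 lower in Mettl14 CKO, at a median of 0.011 that turned to -0.018 under RLE scaling, and 0 were called higher and 4 lower in Mettl3 CKO. Myh11, the smooth muscle myosin heavy chain, had 39 to 243 counts per library, and Myocd, the coactivator of SRF in smooth muscle, 3 to 64. Myh11 stood at 2.66 ± 0.233 CPM in Mettl14 Control and 11.1 ± 1.67 in Mettl3 Control, and its change in Mettl14 CKO (0.21 ± 0.23) did not pass the test. Myh11 fell by 0.70 ± 0.15 in Mettl3 CKO, as Cnn1 did. The 3 called lower in Mettl14 CKO were Cald1, by 0.39 ± 0.028 on the log2 scale, Smtn, by 0.37 ± 0.076, and Lmod1, by 0.81 ± 0.24. The visceral actin gene Actg2, which can share reads with Acta2, rose by 0.45 ± 0.16 in Mettl14 CKO and fell by 0.24 ± 0.089 in Mettl3 CKO. Both Control and CKO comparisons between lines had 8 of the 9 called lower in the Mettl14 line.

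Srf and its coactivator gene Mrtfa, the regulators named above, were read directly. Srf fell by 0.29 ± 0.12 on the log2 scale in Mettl14 CKO and rose by 0.27 ± 0.097 in Mettl3 CKO. Mrtfa rose by 0.35 ± 0.068 in Mettl3 CKO, and its log2 change of -0.13 ± 0.088 in Mettl14 CKO did not pass the test. Ccn2, a matricellular target of YAP and SRF, rose by 0.72 ± 0.031 in Mettl14 CKO and 0.25 ± 0.026 in Mettl3 CKO, and Thbs1, a matricellular glycoprotein, rose by 1.11 ± 0.021 and 0.15 ± 0.020.

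Markers of fibroblasts, the cells of a feeder layer, were read beside these genes. Their summed level was 1249 to 1272 CPM in Mettl14 Control, 2810 to 2817 in Mettl14 CKO, 9127 to 9413 in Mettl3 Control and 10783 to 10871 in Mettl3 CKO. The summed level of the 10 cytoskeleton genes had the same order, 1166 to 1167, 1472 to 1483, 2239 to 2290 and 2339.6 to 2355 CPM. Vim was the largest part of this sum in every group, with a mean of 980 CPM in Mettl3 Control and 1120 in Mettl3 CKO. In the Mettl3 line the means of Acta2, Cnn1, Cnn2, Tpm1 and Tpm2 fell from Control to CKO, and the other means rose. Of 22 fibroblast markers tested, 17 were called higher and 0 lower in Mettl14 CKO, at a median log2 change of 1.13, and 11 higher and 1 lower in Mettl3 CKO, at 0.17. The Mettl3 counts were 7 and 1 at a median of 0.054 under upper-quartile scaling, and 9 and 1 at 0.082 with library totals. Between Controls 1 was called higher and 21 lower in the Mettl14 line, and between CKOs 0 and 21. Every one of the 23 listed markers had a count in every library except Lum, which was at 0 in Mettl14 Control replicate 2.

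The fibroblast markers were not uniform among themselves. Col1a2, a chain of type I collagen, stood at 184 ± 0.353 CPM in Mettl14 Control, against 535 ± 5.87 in Mettl14 CKO, a log2 change of 1.54 ± 0.027. Col5a2 and Fbln2 rose by 1.37 ± 0.027 and 1.56 ± 0.033 in Mettl14 CKO. Col1a1, the other chain of type I collagen, stood at 269.9 ± 5.74 and 338 ± 3.01 CPM, a log2 change of 0.32 ± 0.026. That was lower than the change of Tagln, Pdgfrb or Acta2, and also below the median of 1.13 over the 22 fibroblast markers tested. In the Mettl3 line Col1a1 rose by 0.28 ± 0.021 and Col1a2 by 0.26 ± 0.022, while Pdgfrb and Vim rose and Acta2, Cnn1 and Tpm2 fell. The part of feeder or other fibroblast RNA in the levels of the 10 genes was not tested.

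Markers of other cell types that express these genes were also read. Pericyte markers summed to 34.1 to 37.0 CPM in Mettl14 Control, 54.0 to 54.7 in Mettl14 CKO, 142 to 147 in Mettl3 Control and 180.3 to 185 in Mettl3 CKO, with Kcnj8 at 0 in 1 library. Of these, 3 of 4 tested were called higher in Mettl14 CKO, among them Cspg4 at 1.87 ± 0.11. In Mettl3 CKO 2 of the 4 pericyte markers were called higher and 1 lower (1 and 1 under upper-quartile scaling and with library totals), and between Controls 3 were lower in the Mettl14 line. Of 10 endoderm markers tested, 4 were higher and 0 lower in Mettl14 CKO and 4 higher and 1 lower in Mettl3 CKO (2 and 2 under upper-quartile scaling, 3 and 2 with library totals), and the sum of the 11 listed was 1199 to 1206 CPM in Mettl14 Control, 1889.6 to 1921 in Mettl14 CKO, 2783 to 2822 in Mettl3 Control and 3063 to 3096 in Mettl3 CKO. Between Controls, and also between CKOs, 1 of the 10 endoderm markers was called higher and 5 lower in the Mettl14 line. With library totals the count between Controls was 0 and 9. Those higher in Mettl14 CKO included the matrix genes Col4a1 (1.05 ± 0.031), Col4a2 (0.98 ± 0.041) and Sparc (0.71 ± 0.023). Sparc had 10624 to 30651 counts per library. The regulators Gata4, Gata6, Sox17 and Foxa2 had only 36 to 77, 33 to 73, 5 to 21 and 2 to 8, so the endoderm sum rested little on them. Of 5 macrophage markers tested, 1 was called higher in Mettl14 CKO and 0 in Mettl3 CKO, and all 5 were lower in Mettl14 Control than in Mettl3 Control. Their sum was 13.1 to 15.5 CPM in the Mettl14 line and 23.3 to 26.0 in the Mettl3 line, with Tyrobp at 0 to 2 counts. Of 10 pluripotent cell markers, 1 was called higher and 9 lower in Mettl14 CKO, and all 10 were called higher in Mettl14 Control than in Mettl3 Control (9 with library totals). In Mettl3 CKO 2 of those 10 were called higher and 5 lower (1 and 6 under upper-quartile scaling and with library totals), and between CKOs 7 were higher and 3 lower in the Mettl14 line. The sum of these markers was 3521 to 3524 CPM in Mettl14 Control, 2592 in Mettl14 CKO, 1380.5 to 1389 in Mettl3 Control and 1305 to 1314 in Mettl3 CKO. The part of these other cell types in the levels of the 10 genes was not tested.

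**Figure D3:**
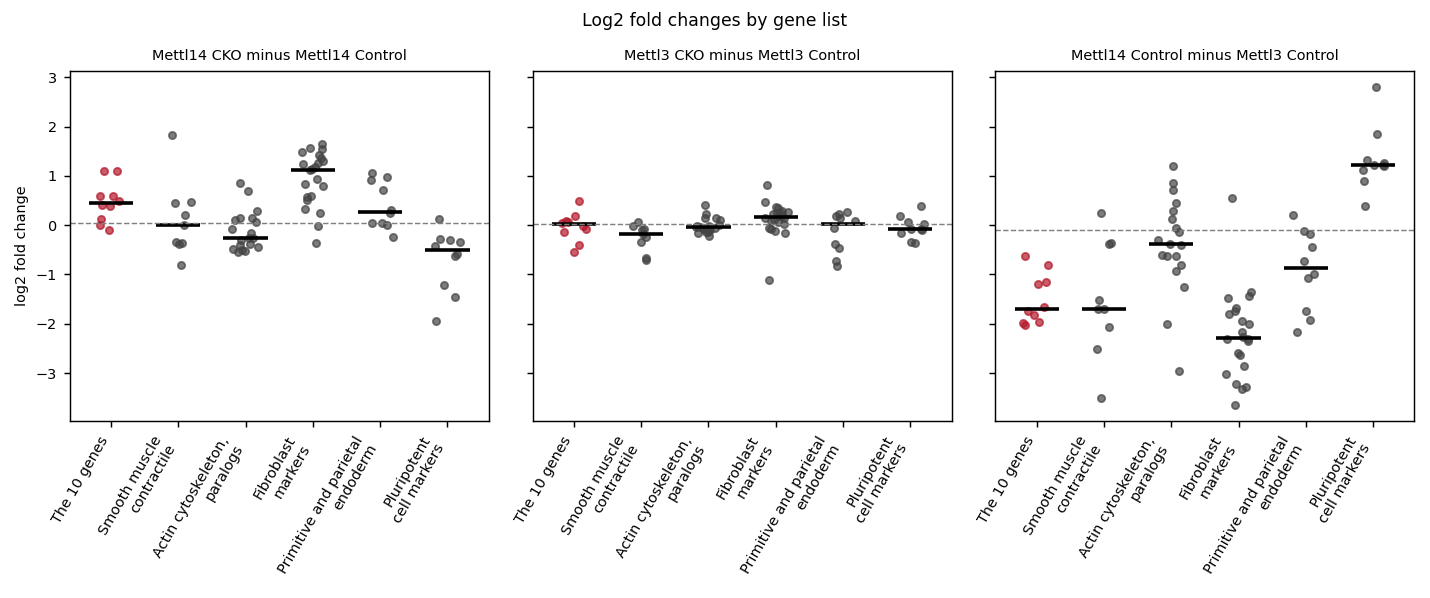
Log2 fold changes of the 10 cytoskeleton genes and of 5 gene lists in 3 comparisons; each point is 1 gene, black bars are list medians and dashed lines the median of all genes tested. The 10 genes had a median of 0.45 in Mettl14 CKO, 0.019 in Mettl3 CKO and -1.71 between Controls, against 1.13, 0.17 and -2.28 for the fibroblast markers.

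Genes whose profile over the 8 libraries was nearest to each cytoskeleton gene were found among 9437 genes by the root mean square difference of centred log2 CPM, a description over libraries that share 4 groups. Acta2 lay nearest to Ltbp1 (0.061), a binding protein of latent TGF-beta, and Tagln to the basement membrane collagen Col4a1 (0.061) and to Gas6 (0.063). Pdgfrb lay nearest to Chpf (0.064) and Tapbp (0.067), Cnn2 to Slc41a2 (0.064) and Myl9 to the microfibril gene Fbn2 (0.082). Vim lay nearest to the nuclear long noncoding RNA Malat1 (0.033) and Tpm1 to Eid3 (0.048). The differences were larger for Cnn1, with Piezo2 at 0.11, and Tpm2, with Sema5a at 0.099. They were not scaled to how much each gene varied over the libraries. Vim and Tpm1 spanned 0.84 and 0.85 on the log2 scale, against 1.85 for Cnn1 and 1.35 for Tpm2. S100a4 was below the level at which likeness was measured.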

How the data were processed

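Per the labels' protocols, nuclear RNA was extracted with Trizol, ribosomal RNA was removed with RiboMinus, and libraries were built with a SMARTer kit (Stranded Total RNA-Seq kit v2). The authors deposited a table of raw gene counts for each sample. The submitters' processing notes name CASAVA, HISAT2 2.1.0, Trimmomatic 0.38, HTSeq and the mm10 genome. No source used here gives the annotation release, the strand setting or how multi-mapping reads were treated.

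Gene IDs were matched without version to GENCODE M21, which named 54409 genes and left 37 without a match; 0 lines named no gene. edgeR 4.0.16 in R 4.3.3 was run with filterByExpr at a minimum count of 10, TMM scaling and the functions glmQLFit (robust) and glmQLFTest. The model was fitted once to all 8 libraries, with 4 residual degrees of freedom and a common dispersion of 0.000571. The tests and intervals of the 10 genes used 130.683 degrees of freedom, since glmQLFit shares information on spread across genes. Their p-values and intervals therefore rest mostly on that sharing and not on the 4 residual degrees of freedom. Genes with an adjusted p under 0.05 (Benjamini-Hochberg, over all 21782 genes tested) are said to be called. Replicates correlated at r of 0.989 to 0.990 in log2 CPM and differed by more than sampling noise (chi-square per degree of freedom 1.41 to 1.97). The alternatives were other scalings, no low-count filter, DESeq2 1.42.0, limma-voom (limma 3.58.1), a non-robust fit, only the 4 libraries of the comparison, a replicate block and leaving out each library; library totals were added after the data were seen. The gene-wise test was also run on counts simulated from the mean levels of these libraries, at a larger dispersion than estimated here.

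The 10 genes and all lists were chosen with earlier results of these data known, so no list is independent support. From each list, genes named were to be the up to 3 called genes per comparison with the smallest p and an average log2 CPM of at least 1; Tpm4, Myocd, Srf, Mrtfa and Pdgfra fall outside this rule and were chosen after their values were seen, and not all genes within it are reported. Likeness of profiles was measured among genes averaging a log2 CPM of 3 or more. The counts of 1 further gene list are not reported here.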

Additional observations from a re-analysis of the deposited data

Results flagged for a closer look

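The change from Control to CKO differed between the Mettl14 and Mettl3 lines by the test of that difference for 7 of the 10 genes, all 7 in the positive direction, where 33.2% of all genes tested were called, 12.7% in the positive direction and 20.5% in the negative. As Mettl14 change minus Mettl3 change on the log2 scale, the difference was 0.74 for Acta2, 1.02 for Tagln, 1.04 for Cnn1, 0.61 for Cnn2, 0.30 for Tpm2, 0.22 for Vim and 0.62 for Pdgfrb. For Acta2 and Cnn1 the change was called in both lines with opposite signs. The Mettl3 change of Acta2 was -0.034 and not called without the low-count filter. For Vim and Pdgfrb the change was called higher in both lines. For Tagln and Cnn2 it was called in the Mettl14 line, and for Tpm2 in the Mettl3 line. The groups hold 2 libraries each, so no library was examined for standing apart within its group.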

How the results depend on the processing

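Counts of the 10 genes called and of all genes called stayed within 1.5 times of the reported ones, with these exceptions. Of the genes called lower in Mettl3 CKO, 4 as reported, 2 were left without the low-count filter, and 2 to 3 when 1 library was left out, the 2 being without Mettl3 CKO replicate 2. DESeq2 called 2166 genes for Mettl3, where edgeR called 4552, and 4714 for the difference of the changes, where edgeR called 7238. Signs changed only for values that were not called, apart from Tpm1 in the Mettl3 line, which was 0.037 without the low-count filter. For Mettl14, Tpm1 became -0.027 with RLE scaling and with DESeq2 and -0.00012 without the filter, and ran from -0.030 to 0.025 leaving out 1 library; Tpm2 became 0.11 with library totals, and S100a4 ran from -0.017 to 0.29 leaving out 1 library. For Mettl3, upper-quartile scaling gave -0.046 for Tagln, -0.022 for Myl9 and -0.059 for S100a4, library totals gave -0.017 for Tagln and -0.031 for S100a4, and no filter gave 0.091 for Cnn2. Leaving out 1 library gave -0.0067 to 0.049 for Cnn2 and -0.11 to 0.31 for S100a4. For the difference of the changes, no filter gave -0.037 for Tpm1 and -0.029 for S100a4, and leaving out 1 library gave -0.17 to 0.25 for S100a4. The cause of these shifts was not tested. Library totals moved the median of all genes by 0.20 for Mettl14, 0.29 for the difference, -0.45 between Controls and -0.16 between CKOs, and upper-quartile scaling moved it by -0.11 for Mettl3, 0.16 for the difference and -0.22 between Controls. Without the low-count filter, over 48000 genes, the median moved by 0.25 for the difference and -0.41 between Controls. Counts over gene lists depended on the scaling too. Samples share only a replicate number (r of deviations between -0.032 and 0.11); with a replicate block, 7 of the 10 genes were called for Mettl14 and 6 for Mettl3, and 8835 and 4620 of all genes. With 2 libraries a group, changes of genes with few counts such as S100a4 and Myl9 were not well resolved at this depth.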

Other observations

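TGF-beta pathway, mesenchymal transition, epithelial, intermediate filament, S100 and PDGF genes were read as lists chosen with earlier results known. Of 12 TGF-beta pathway genes tested, 7 were called higher and 2 lower in Mettl14 CKO and 7 higher and 0 lower in Mettl3 CKO, with medians of 0.20 and 0.18, while 4 were higher and 8 lower in Mettl14 Control than in Mettl3 Control. The Mettl3 count was 5 and 0 under upper-quartile scaling and with library totals, and the count between Controls was 1 and 9 with library totals. Of 6 mesenchymal transition genes, 3 were called higher and 1 lower in Mettl14 CKO and 3 higher and 0 lower in Mettl3 CKO, and between Controls 1 was higher and 4 lower; upper-quartile scaling gave 2 and 1 for Mettl3. Of 5 epithelial genes, 1 was called higher and 1 lower in Mettl14 CKO and 2 higher and 0 lower in Mettl3 CKO, and between Controls 1 was higher and 3 lower; upper-quartile scaling gave 2 and 1 for Mettl3.

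Among 12 intermediate filament genes other than Vim, 6 were called higher and 5 lower in Mettl14 CKO, 4 higher and 3 lower in Mettl3 CKO, and 6 higher and 4 lower between Controls. With library totals these counts were 6 and 2, 2 and 4, and 3 and 5. Within this list the nuclear lamins went opposite ways: Lmna rose by 0.88 ± 0.044 and Lmnb1 fell by 1.10 ± 0.026 in Mettl14 CKO, and Lmna rose by 0.21 ± 0.034 and Lmnb1 fell by 0.26 ± 0.028 in Mettl3 CKO. Of 7 S100 genes other than S100a4, 2 were called higher and 1 lower in Mettl14 CKO, 2 higher and 0 lower in Mettl3 CKO, and 2 each way between Controls; S100a6 rose by 0.85 ± 0.072 and 0.15 ± 0.056. None of the 7 was called in Mettl3 CKO under upper-quartile scaling or with library totals. Of 5 genes that comprise PDGF ligands and Pdgfra, 1 was called higher and 1 lower in Mettl14 CKO, 0 in Mettl3 CKO, and 1 higher and 3 lower between Controls; library totals gave 2 and 0, 0 and 1, and 0 and 5. Pdgfra, the receptor gene paired with Pdgfrb in its family, changed by -0.021 ± 0.15 in Mettl14 CKO and by -0.14 ± 0.15 in Mettl3 CKO, and neither passed the test.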
